A study of Homo sapiens with 4 samples.

Results

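MPV17, its relatives MPV17L, MPV17L2 and PXMP2, and UCN, the gene beside MPV17, are 5 of the 25685 genes named in RNA recovered by miRNA pull-out from DU-145 cells. They were chosen by gene symbol, and the choice used the outcome, since MPV17 and UCN were picked as neighbours that were both higher in the biotin libraries. DU-145 is an established human cell line from a prostate cancer that grows without androgen. All cells were transfected by lipofectamine with 60 nM of a miR-26a duplex 24 h after seeding, irradiated at 365 nm with 2 J/cm2 on the following day, and lysed for RNA that was incubated for 4 h with streptavidin beads. The control group (2 libraries) received the duplex without a tag. The biotin group (2 libraries) received a mix of duplexes with biotin at the 3′ end and a thiouridine, a nucleotide that crosslinks under this light, at nucleotide 7 or at nucleotide 17. Biotin and thiouridine came together, both groups carried added miR-26a, and all cells were of a single line. Each group had 2 biological replicates, per the series design.

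MPV17 is a small protein of the inner mitochondrial membrane, and its loss in people depletes mitochondrial DNA in the liver and in nerves. Its relatives span the membranes of mitochondria and peroxisomes: PXMP2 forms a channel of the peroxisomal membrane, MPV17L2 helps to assemble the mitochondrial ribosome, and MPV17L has been linked to the handling of oxidants. UCN encodes urocortin, a secreted peptide of the corticotropin-releasing factor family, and is related to MPV17 only by place. A microRNA is known to pair with mRNAs mainly through its seed, the stretch from nucleotide 2 to nucleotide 8.

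The pairing partner in every library was miR-26a, shown here because each site below is read against it. Its mature sequence from RefSeq (GRCh38.p14) is encoded by MIR26A1 at chr3:37969413-37969434 on the plus strand and by MIR26A2 at chr12:57824658-57824679 on the minus strand. Capitals mark the seed.
hsa-miR-26a-5p: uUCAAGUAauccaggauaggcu
The seed site TACTTGA was found in the GENCODE 29 transcript of MPV17L2 only, in the coding part of exon 4 of 5, at chr19:18195064-18195086 on the plus strand. Transcripts of MPV17, MPV17L, PXMP2 and UCN held no copy. The MPV17L transcript searched had 1037 nucleotides, against 2238 to 2311 for its deposited entries, so part of the listed transcripts was not searched.
MPV17L2 seed site: acctgtccTACTTGAagtaccgg
The longest runs of complementary bases in MPV17 were of 7. One was TCCTGGA opposite nucleotides 10 to 16 of miR-26a, in the coding part of exon 8 of 8 (chr2:27309921-27309943, minus strand). The other was TATCCTG opposite nucleotides 12 to 18, in the coding part from exon 6, and none of the other members held it. PXMP2 held TCCTGGA in the coding part of exon 3 of 5 (chr12:132695971-132695993, plus strand). Both copies of it are shown because MPV17 was far higher in the biotin libraries and PXMP2 was not.
MPV17 central site: cctacctgTCCTGGAaggcacat
PXMP2 central site: gaggcttcTCCTGGAccgcctcg
UCN had no run longer than 6 bases, TCCTGG opposite nucleotides 11 to 16, once in its 5′ UTR (chr2:27308275-27308296) and once in the coding part of exon 2 (chr2:27307839-27307860), both on the minus strand. The copy in the 5′ UTR lies beyond the end of the transcript listed for UCN in the deposited tables.
UCN site in the 5′ UTR: cggagctgTCCTGGcactatat
UCN site in exon 2: gctgctgcTCCTGGtacagctg

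MPV17 had the highest level of these genes in every library. It is a single transcript, NM_002437, of 1007 nucleotides at chr2:27309492-27323102 on the minus strand (hg38). Its level, as FPKM (fragments per kilobase of transcript, normalised to library depth), was 50.79 and 45.05 in control replicates 1 and 2 and 539.7 and 610.4 in biotin replicates 1 and 2. The libraries of a group lay close together and the groups did not overlap, with the lower biotin value 10.6-fold above the higher control value. The mean was 47.9 ± 4.06 FPKM (SD, n = 2) in the control and 575 ± 50.0 FPKM (SD, n = 2) in the biotin group, a 12.0-fold difference. On the log2(FPKM + 1) scale the difference was 3.56 ± 0.20 (SE), the rank of 10 from the top among 9940 genes tested. By level MPV17 already stood at percentile 95.2 of these genes in the controls, and it stood at percentile 99.8 in the biotin group. Fold, rank and difference describe why MPV17 was chosen, so no test is given for them, nor for the other members. In bulk pull-out libraries such as these, more cells holding a transcript, more of it per cell and more of it captured on the beads cannot be told apart. No library of RNA before the pull-out is among the samples.

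UCN, the neighbouring peptide gene, was a low transcript in the controls and a moderate one in the biotin libraries. NM_003353, of 615 nucleotides at chr2:27307397-27308262 on the minus strand, had 2.353 and 4.447 FPKM in control replicates 1 and 2 and 59.52 and 34.18 FPKM in biotin replicates 1 and 2. Both biotin libraries stood above both controls, by 7.69-fold at the least. Replicates were farther apart than for MPV17, and biotin replicate 1 was the higher for UCN where biotin replicate 2 was the higher for MPV17. The mean was 3.40 ± 1.48 FPKM (SD, n = 2) in the control and 46.9 ± 17.9 FPKM (SD, n = 2) in the biotin group, 13.8-fold apart, and the log2 difference was 3.43 ± 0.34 (SE), rank 16. UCN moved from percentile 41.5 of the tested genes by level to percentile 94.7. With a pseudocount of 5 in place of 1 FPKM its log2 difference was 2.59, since the pseudocount weighs on low controls.

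**Figure D1:**
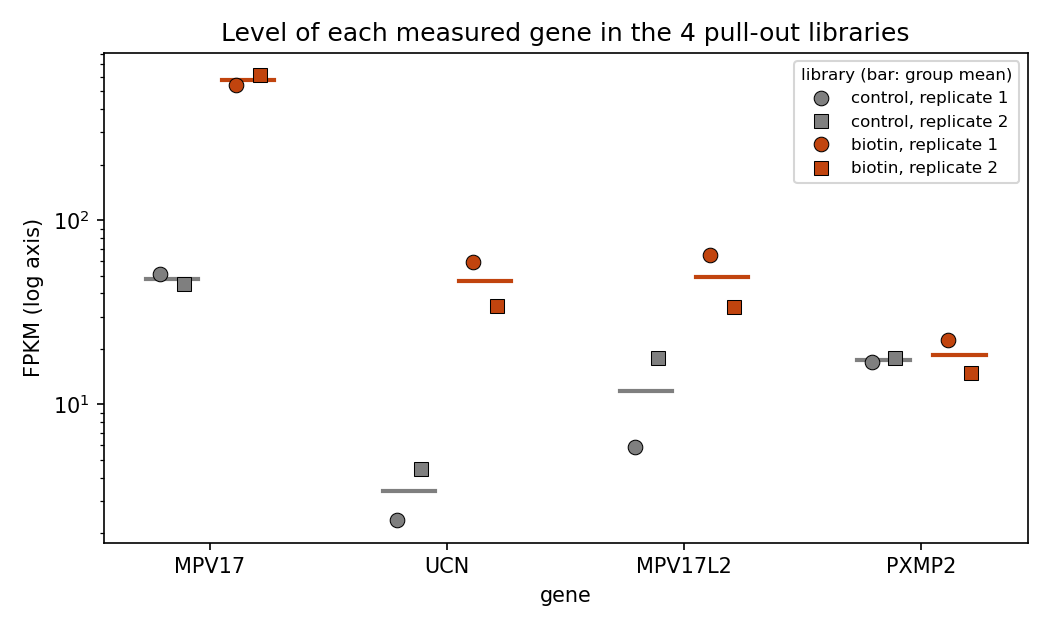
FPKM on a log axis of the 4 genes with a level above 0 in the 2 control (grey) and 2 biotin (orange) libraries, circles for replicate 1, squares for replicate 2 and bars for group means. MPV17 (47.9 and 575 FPKM) and UCN (3.40 and 46.9 FPKM) show a wide gap between groups, MPV17L2 a gap beside wide replicates, and PXMP2 (17.5 and 18.7 FPKM) overlapping groups.

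MPV17L2, the mitoribosome assembly factor, was also higher in the biotin group, with the widest spread between replicates, on the log2 scale, among the 4 members with a level above 0. NM_032683, of 1358 nucleotides at chr19:18193230-18196740 on the plus strand, had 5.863 and 17.76 FPKM in control replicates 1 and 2 and 64.61 and 33.90 FPKM in biotin replicates 1 and 2. The groups did not overlap, but the 2 controls differed 3.03-fold from each other and the nearest libraries of the 2 groups only 1.91-fold. The means were 11.8 ± 8.41 and 49.3 ± 21.7 FPKM (SD, n = 2 each), a 4.17-fold difference, with a log2 difference of 2.08 ± 0.51 (SE) and rank 160. Leaving out control replicate 1 lowered that difference to 1.35, and it ran to 2.80 without control replicate 2. Of all tested genes, 0.624% had a larger gap between the 2 controls and 2.18% a larger gap between the 2 biotin libraries.

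PXMP2, the peroxisomal channel, did not separate the groups. NM_018663, of 957 nucleotides at chr12:132687606-132704991 on the plus strand, had 17.04 and 17.88 FPKM in the controls and 22.43 and 14.86 FPKM in biotin replicates 1 and 2. The 2 biotin libraries lay on either side of the controls. The means were 17.5 ± 0.594 and 18.7 ± 5.35 FPKM (SD, n = 2 each), and the log2 difference was 0.06 ± 0.23 (SE). Its sign was negative without biotin replicate 1 (-0.22) and with upper-quartile scaling (-0.02).

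MPV17L was listed at 0 in all 4 libraries. Its 2 accessions, NM_001128423 and NM_173803, each appear once on chromosome 16 (15395754 to 15409686, plus strand) and once on an alternate scaffold of it, and the deposited interval of each of these 4 entries also ended at 0. It was not tested. Thus 4 of the 5 genes passed the filter of at least 1 FPKM in at least 2 libraries. MPV17, UCN and MPV17L2, 3 of these 4, had both biotin libraries above both controls, against 29.4% of all 9940 tested genes, and none had both below, against 37.7%. That count follows in part from how the genes were chosen.

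The order of levels per kilobase changed between the groups. In the controls MPV17 was followed by PXMP2, then MPV17L2 and UCN, and the ranges of PXMP2 and MPV17L2 overlapped. In the biotin libraries MPV17L2 and UCN took the next places after MPV17 with overlapping ranges, and PXMP2 was lowest of the 4. MPV17 exceeded PXMP2 by 2.98-fold and 2.52-fold in control replicates 1 and 2 and by 24.1-fold and 41.1-fold in biotin replicates 1 and 2. MPV17L2 was below PXMP2 in control replicate 1 (0.344 of its level), level with it in control replicate 2 (0.993), and above it in the biotin libraries (2.88-fold and 2.28-fold). The share of UCN in the level of MPV17 was 4.63% and 9.87% in control replicates 1 and 2 and 11.03% and 5.60% in biotin replicates 1 and 2. The ranges of the groups overlap. With the midpoints of the deposited intervals described below the shares were 18.0% and 28.4% in the controls and 27.7% and 19.4% in biotin, higher throughout and again overlapping, and the control intervals of UCN begin at 0.

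The deposited tables give an interval beside each FPKM, and for the family members the FPKM lay outside it. MPV17 had intervals of 16.7 to 22.4 and 15.4 to 19.9 FPKM in control replicates 1 and 2 and of 203.2 to 221.1 and 169.4 to 183.5 FPKM in biotin replicates 1 and 2. Its FPKM was 2.27 times the upper end in both controls, 2.44 times in biotin replicate 1 and 3.33 times in biotin replicate 2. MPV17L2 lay above the upper end in all 4 libraries as well, by 2.45 to 4.47 times, and so did PXMP2, by 1.31 to 1.58 times. UCN lay inside its interval in every library, and in the controls that interval began at 0 (0 to 7.06 and 0 to 10.0 FPKM). Among 9922 tested genes with a usable interval, 11.9% lay above it in all 4 libraries, 59.1% lay inside in all 4 and 16.3% lay below in all 4. Genes above their interval were called higher in biotin in 16.2% of cases, against 12.4% of those inside. Taking the midpoint of the interval in place of the FPKM gave log2 differences of 3.31 for MPV17, 3.14 for UCN, 1.47 for MPV17L2 and 0.17 for PXMP2. Order and sign were as with FPKM. How the authors' software set FPKM against the interval is not given in the sources used here.

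**Figure D2:**
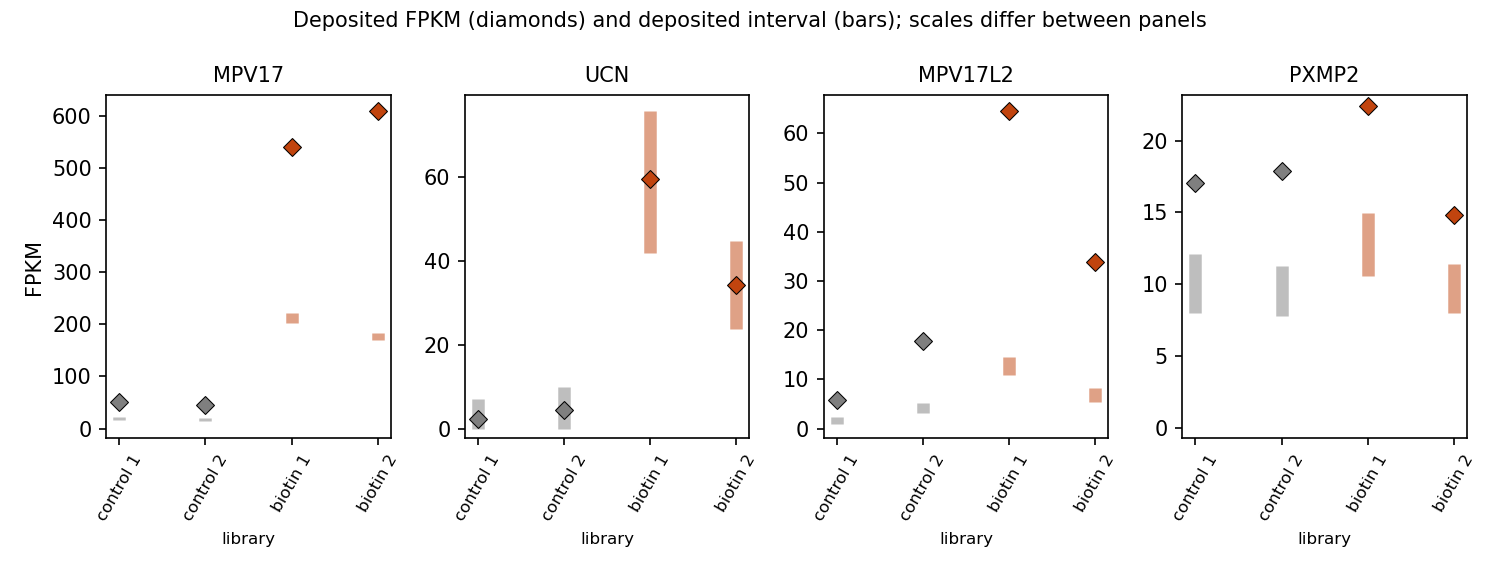
Deposited FPKM (diamonds) and the deposited interval (bars) of MPV17, UCN, MPV17L2 and PXMP2 in each control (grey) and biotin (orange) library, on a scale of its own in each panel. The diamonds of MPV17, MPV17L2 and PXMP2 stand above their bars in all 4 libraries, and those of UCN stand within them.

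MPV17 and UCN lie head to tail on the minus strand of chromosome 2. The end of the UCN transcript is 1229 bp from the start coordinate of MPV17, which is the 3′ end of MPV17 on that strand, so UCN follows MPV17 in the direction of transcription. TRIM54, on the plus strand, overlaps UCN by 43 bp and was listed at 0, 0.105, 0 and 0 FPKM in control replicates 1 and 2 and biotin replicates 1 and 2. Libraries were made with a stranded kit, but the strand setting of the counting is not given in the sources used here. The mean read depth over the UCN transcript was 1.88 and 3.96 in control replicates 1 and 2 and 52.4 and 40.6 in biotin replicates 1 and 2. Over MPV17 it was 40.8 and 40.3 in the controls against 474.3 and 722.6 in the other group. The deposited tables hold no values for the 1229 bp in between, so reads there were not analysed here.

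Within 100 kb of the pair lay 13 other genes, of which 9 were tested and 3 passed as higher and 1 as lower in biotin, against 13.1% higher and 9.32% lower among all tested genes. Their median log2 difference was 0.33, against -0.06 over all tested genes. ATRAID, a gene named for its induction by retinoic acid, had 91.9 and 120.9 FPKM in the controls against 691.7 and 697.9 FPKM in biotin (log2 difference 2.71 ± 0.22, limma adjusted p = 0.00114). GTF3C2, a subunit of the transcription factor TFIIIC and the next gene upstream of MPV17 on its strand, at 2746 bp, had 7.16 and 6.00 against 24.4 and 19.6 FPKM (1.60 ± 0.19, limma adjusted p = 0.00392). SLC30A3, a zinc transporter, was low throughout, at 0.367 and 0.937 against 1.97 and 1.52 FPKM (log2 difference 0.75), and met the filter only through the biotin libraries, where it is higher, so it is listed without a p. EIF2B4, a subunit of the exchange factor eIF2B, was lower in biotin, at 3.796 and 4.37 against 2.60 and 1.98 FPKM (-0.63, limma adjusted p = 0.0381). ATRAID passed whichever library was left out, GTF3C2 did not pass without control replicate 1 or control replicate 2, and EIF2B4 passed in no fit that left out a library. SLC30A3 is 1 of the 3 counted as higher above, and its call was also lost in each such fit. CAD, SNX17, PPM1G and FTH1P3 did not pass, with log2 differences from -0.61 for SNX17 to 0.45 for FTH1P3. SLC5A6 did not pass either and was listed at 0 in biotin replicate 1 beside 27.97 FPKM in biotin replicate 2.

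**Figure D3:**
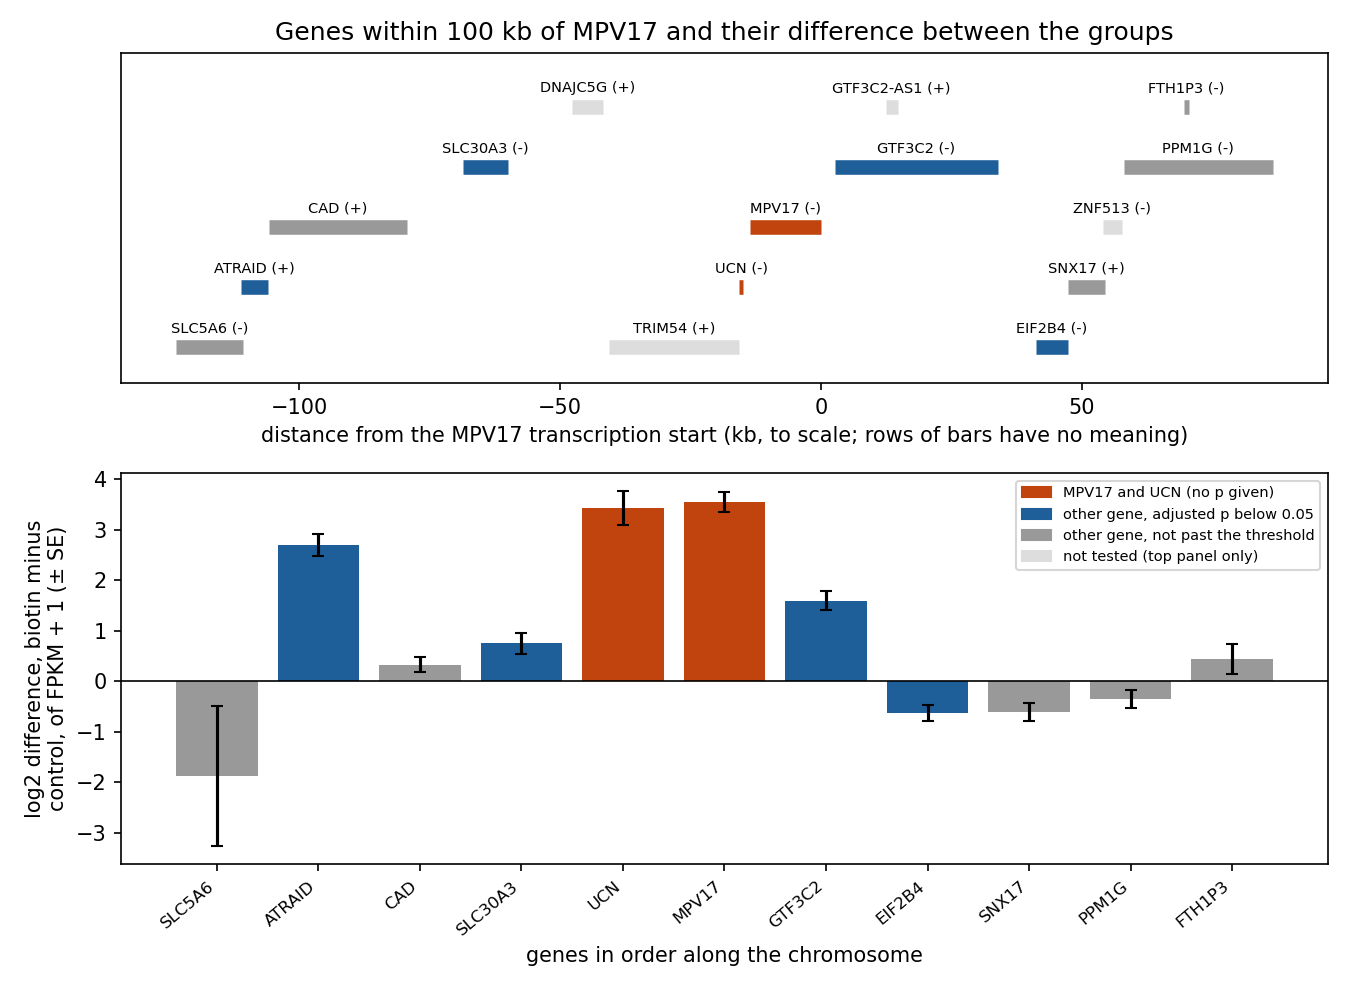
Top, genes within 100 kb of MPV17 and UCN at their distance in kb from the MPV17 transcription start, with strand. Bottom, log2 difference of FPKM + 1 between biotin and control (± SE, n = 2 libraries per group) in chromosome order. MPV17 (3.56) and UCN (3.43) are in orange and carry no p, since they were chosen for this difference, ATRAID (2.71), GTF3C2 (1.60), SLC30A3 (0.75, in the fit only through its biotin values) and EIF2B4 (-0.63) in blue had an adjusted p below 0.05, and pale genes were too low to be tested.

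Around the other members a single tested neighbour passed. Near PXMP2, GOLGA3, a Golgi protein, passed among 4 tested genes (5.70 and 4.96 against 10.9 and 10.5 FPKM, log2 difference 0.89, limma adjusted p = 0.0138), and it passed in no fit with a library left out. POLE, a DNA polymerase subunit that starts 81 bp from PXMP2 on the opposite strand, had 3.76 and 3.31 FPKM in the controls and 3.59 and 4.66 FPKM in biotin and did not pass, and neither did PGAM5 nor ANKLE2. Near MPV17L2, limma called none of 5 tested genes (MAST3, PIK3R2, IFI30, IQCN and JUND), of which 2 were higher and 1 lower at an unadjusted p below 0.05. Such an unadjusted p was common, held by 3914 of all 9940 tested genes in either direction. Neither neighbour of MPV17L was tested. Over all members, 5 of 18 tested neighbours passed in either direction, against 22.5% of all tested genes, and 1, 1, 2 and 3 passed without control replicate 1, control replicate 2, biotin replicate 1 and biotin replicate 2.

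The pair was set beside other genes that follow each other on a strand within 5 kb. In 13 further pairs the upstream gene had a log2 difference of 2 or more, as MPV17 did. Among these upstream genes PRR19 and BDH2 had control means of 0 and 0.820 FPKM. They met the filter only with their biotin libraries, where they are higher, so their differences depend on the pseudocount. The downstream gene was called higher in 1 of them (7.69%), IFRD2 after HYAL3 with a log2 difference of 0.86, and lower in 1, SNRPG after FAM136A with -1.75. None of the 13 downstream genes reached a log2 difference of 2, and their median was 0.16. In the other 707 pairs the downstream gene was called higher in 13.6% and reached a log2 difference of 2 in 11 (1.56%), so that 0 of 13 is near this background. UCN, with 3.43, therefore lay above every downstream gene of these 13 pairs, among them CAD after ATRAID (0.33) in the same region. The pairs were not matched by level. Control means of the upstream genes ran from 0 (PRR19) to 106.4 FPKM (ATRAID), against 47.9 FPKM for MPV17. Those of the downstream genes ran from 0.817 (SLC9B2) to 38.1 FPKM (ATP6V0B), against 3.40 FPKM for UCN. MPV17 and UCN were chosen as such a pair, so this sets their values beside others and tests nothing.

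The profiles nearest to MPV17 and to UCN over the 4 libraries were sought among all tested genes, by the Euclidean distance between centred log2(FPKM + 1) values. For MPV17 they were PCDHA12, a protocadherin whose exons are in part shared with its cluster (distance 0.121), NKIRAS2, a Ras-like protein (0.210), and ATP5F1A, the alpha subunit of ATP synthase (0.223). PCDHA12 and NKIRAS2 were listed at 0 in both controls, so their distances depend on the pseudocount and show no likeness to MPV17. ATP5F1A had 95.5 and 89.9 FPKM in the controls and 897 and 1004 FPKM in biotin replicates 1 and 2. For UCN they were FBXO9, an F-box protein (0.279), PRKAB1, a subunit of AMP-activated kinase (0.292), and HPRT1, of purine salvage (0.495). All of these had biotin replicate 1 above biotin replicate 2, as UCN did: FBXO9 had 77.6 and 51.3 FPKM there and 3.71 and 5.26 FPKM in the controls. That shared order follows from the choice, since these genes were picked by distance to UCN over the same libraries. MPV17 and UCN were 0.925 apart, and 49 genes lay nearer to MPV17 than UCN did. MPV17L2 was 1.46 from UCN and 2.02 from MPV17.

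Other genes of the pathways in which the family acts were read from the fit over all genes. In mitochondrial nucleotide supply, which keeps up the building blocks of mitochondrial DNA, 6 of 14 tested genes were higher and 2 lower, with a median log2 difference of 0.22. Over all tested genes 13.1% were higher and 9.32% lower, with a median of -0.06, and the lists below are to be read against these shares. NME4, the mitochondrial nucleoside diphosphate kinase, had 43.1 and 51.5 FPKM in the controls and 214.9 and 210.8 FPKM in biotin (log2 difference 2.15 ± 0.20, limma adjusted p = 0.00163). SUCLA2, a subunit of succinyl-CoA synthetase, had 3.88 and 4.25 against 14.5 and 16.3 FPKM (1.70 ± 0.16, limma adjusted p = 0.00178). RRM2B, a subunit of ribonucleotide reductase, had 5.32 and 4.97 against 13.8 and 13.8 FPKM, and TYMP, thymidine phosphorylase, 18.8 and 21.7 against 47.7 and 45.7 FPKM. All of these were below MPV17 in log2 difference. SUCLG1 (-0.70) and SUCLG2 (-0.91), other subunits of the synthetase, were lower. In fits without control replicate 1, control replicate 2, biotin replicate 1 and biotin replicate 2 the list held 1, 2, 4 and 5 calls, and NME4 passed in each.

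Genes that copy and transcribe mitochondrial DNA, the molecule lost without MPV17, held 1 higher and 1 lower gene among 19 tested (5.26% each, against 13.1% and 9.32% of all tested genes), with a median of -0.10. TOP3A, a topoisomerase, was higher (8.49 and 7.89 against 23.0 and 25.1 FPKM, log2 difference 1.45 ± 0.17, limma adjusted p = 0.00351), and it did not pass without control replicate 1 or control replicate 2. ENDOG, a mitochondrial nuclease, had 8.84 and 11.4 FPKM in the controls and was listed at 0 in both biotin libraries. It is the 1 gene counted as lower above and met the filter only through the controls, where it is higher. POLG, the mitochondrial DNA polymerase, had 6.92 and 8.32 against 13.4 and 11.1 FPKM (limma adjusted p = 0.0554), and TFAM, which packages that DNA, 2.63 and 2.52 against 1.73 and 1.61 FPKM (limma adjusted p = 0.0693). Neither passed. With upper-quartile scaling 5 genes of the list passed, 4 of them lower, and 3 passed without biotin replicate 1.

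In the assembly of the mitochondrial ribosome, where MPV17L2 acts, 1 of 17 tested genes was higher (5.88%, against 13.1% of all) and 3 lower (17.6%, against 9.32%), with a median of -0.28. RPUSD4, which modifies mitochondrial ribosomal RNA, had 4.52 and 3.82 FPKM in the controls and 36.3 and 25.5 FPKM in biotin (log2 difference 2.61 ± 0.22, limma adjusted p = 0.00122). It passed whichever library was left out. NGRN (-0.94), NOA1 (-0.72) and MALSU1 (-0.71) were lower, and none of them passed in any fit with a library left out. Genes of mitochondrial membrane shape had 3 higher and 2 lower among 19 tested, with a median of -0.16, and these shares of 15.8% and 10.5% are near the 13.1% and 9.32% of all tested genes. PHB2, a prohibitin of the inner membrane where MPV17 resides, had 102.8 and 117.5 against 369 and 269.8 FPKM (log2 difference 1.51), and MFN2, a mitofusin, 6.96 and 8.59 against 17.2 and 20.9 FPKM (1.19). CHCHD3 (-0.74) and OPA1 (-0.63), which shape the inner membrane, were lower. This list held 0, 0, 4 and 1 calls without control replicate 1, control replicate 2, biotin replicate 1 and biotin replicate 2.

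Among peroxisomal genes, the setting of PXMP2, 6 of 32 tested were higher (18.8%, against 13.1% of all) and 3 lower (9.38%, against 9.32%), with a median of -0.08. PEX16, counted as higher, had 0.837 and 1.09 FPKM in the controls and would not meet the filter from these. PHYH, counted as lower, had 1.11 and 0.836 FPKM in biotin and would not meet it from those. CAT, the peroxisomal catalase, had 11.3 and 14.9 FPKM in the controls and 46.4 and 46.9 FPKM in biotin (log2 difference 1.77 ± 0.20, limma adjusted p = 0.00333). PEX26 (0.90), of the machinery of protein import, was higher too, and MFF, a fission factor of mitochondria and peroxisomes, was lower (68.9 and 70.1 against 38.4 and 28.8 FPKM, log2 difference -1.04). The genes nearest to PXMP2 in kind gave no call: ABCD3 and SLC25A17, carriers of the peroxisomal membrane, had limma adjusted p values of 0.0753 and 0.635, and PXMP4 stayed below 0.3 FPKM. Without control replicate 1, control replicate 2, biotin replicate 1 and biotin replicate 2 the calls numbered 0, 1, 3 and 1. Of 10 genes of oxidant defence, limma called 0 higher and 1 lower (10.0%, against 9.32% of all tested genes). At an unadjusted p below 0.05 the counts were 0 and 3, against 3914 of all 9940 tested genes in either direction. The called gene was GPX1, a glutathione peroxidase (82.2 and 95.5 against 57.6 and 38.5 FPKM, limma adjusted p = 0.0490), which passed in no fit with a library left out. The rest of the urocortin system was not measurable: UCN3, CRH, CRHR1, CRHR2 and CRHBP were listed at 0 in every library, and UCN2 reached 0.0803 FPKM in biotin replicate 2 only.

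**Figure D4:**
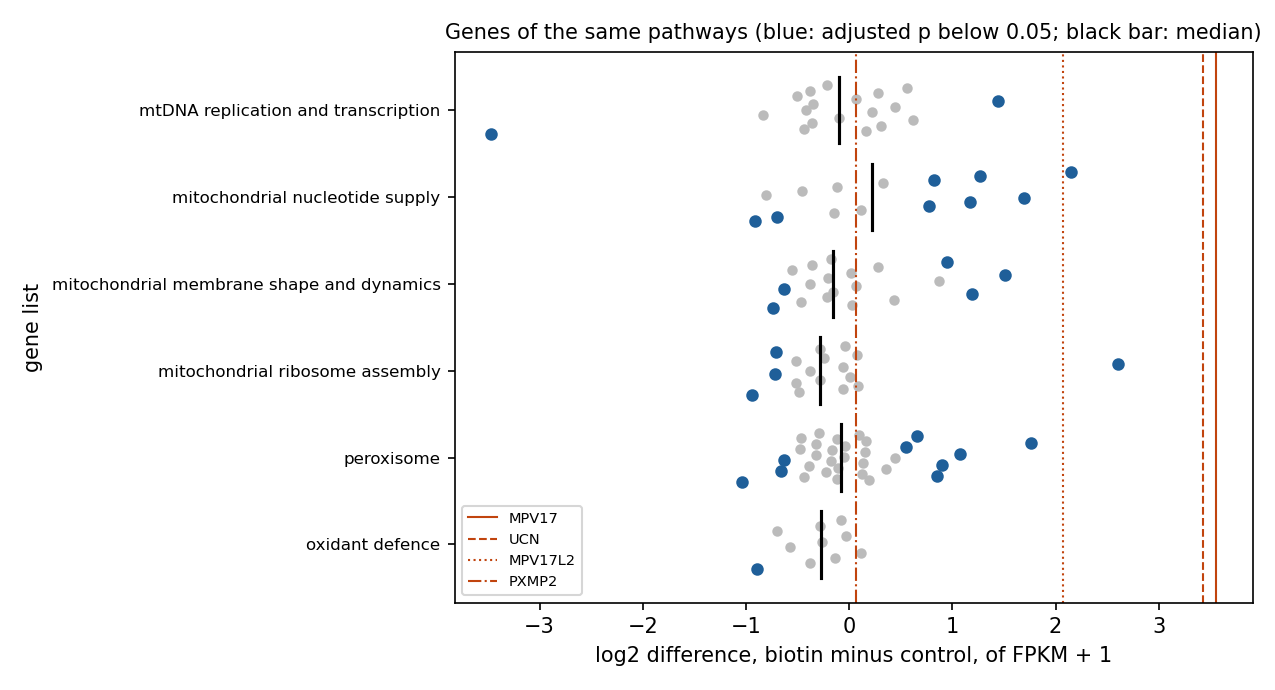
Log2 difference of FPKM + 1 between biotin and control for each tested gene (points) of 6 lists, with blue for limma adjusted p below 0.05, black bars for list medians and vertical lines for the values of MPV17 (3.56), UCN (3.43), MPV17L2 (2.08) and PXMP2 (0.06). No gene of these lists reaches the lines of MPV17 or UCN. The point at the far left is ENDOG, listed at 0 in both biotin libraries and in the fit only through its controls.

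The complementary runs printed above were set beside those of all genes. TACTTGA, the seed site present in MPV17L2, was held by 17.6% of 9571 tested transcripts, by 19.7% of those called higher in biotin and by 16.7% of the 162 with a log2 difference of 2 or more. TCCTGGA was present once each in MPV17, PXMP2 and MPV17L2 and in neither UCN nor the MPV17L transcript searched. It was held by 43.9%, 60.9% and 62.3% of the same groups. Among all 7-base runs this was the most frequent in each group. Its core TCCTGG, which both copies in UCN match, was held by 77.7% of all tested transcripts and by 89.5% of those with a log2 difference of 2 or more. Only the sense strand of the transcript was searched, and runs of neighbouring positions overlap each other. The other run of MPV17, TATCCTG, which PXMP2 lacks, was held by 17.9%, 24.7% and 24.1% of these groups. PXMP2 held 1 of the 2 runs of MPV17, and UCN held neither. Some complementary run of at least 7 bases was held by 86.5% of tested transcripts. A link between these runs and recovery was not tested.

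The lowest duplex energy with miR-26a, computed with RNAduplex over the whole transcript, was -21.3 kcal/mol for MPV17 and -21.5 kcal/mol for PXMP2. Of tested transcripts, 14.4% and 12.4% had an energy as low or lower. It was -18.7 kcal/mol for MPV17L2, -17.0 kcal/mol for UCN and -16.5 kcal/mol for MPV17L, with 54.7%, 83.5% and 89.0% of transcripts as low or lower. The median was -18.9 kcal/mol over all tested transcripts and -21.3 kcal/mol over those with a log2 difference of 2 or more. MPV17 had the energy of this last median, and UCN a higher one, that is, weaker pairing. MPV17, UCN and MPV17L2 are themselves among these transcripts, so the median is no separate reference. The UCN duplex lies beyond the end of the transcript listed for UCN in the deposited tables. The MPV17L energy covers only the shorter transcript searched. These transcripts differ in length, with 795 nucleotides for UCN, 1005 for MPV17 and a median of 2819 over all tested genes.

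**Figure D5:**
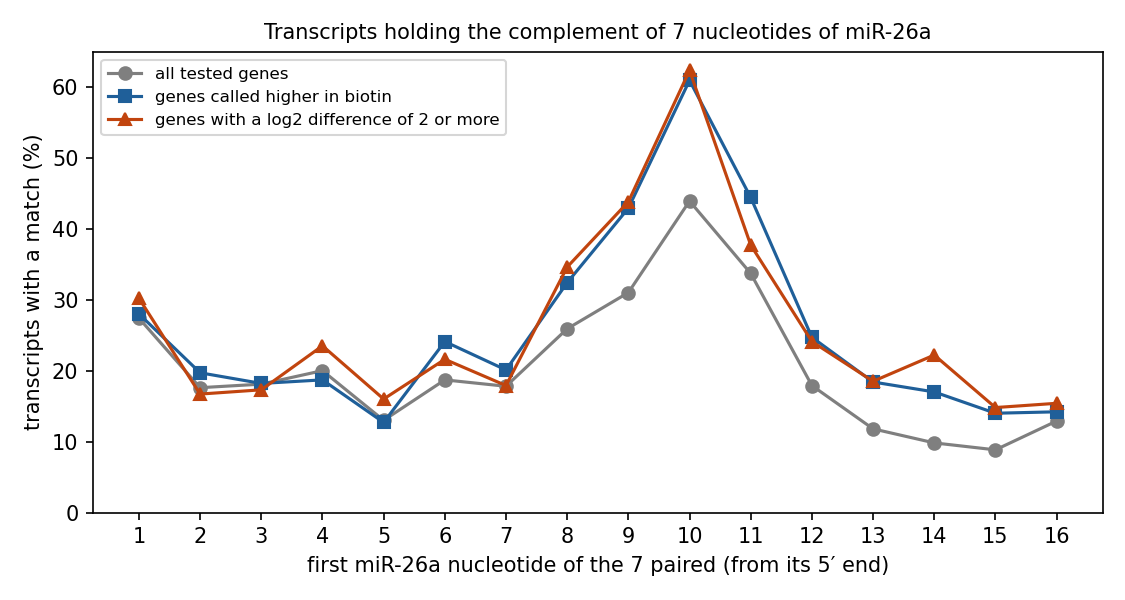
Percent of transcripts that hold the complement of 7 successive nucleotides of miR-26a, by the first nucleotide paired, for all tested genes (grey), genes called higher in biotin (blue) and genes with a log2 difference of 2 or more (orange). All curves peak at nucleotide 10, the run TCCTGGA of MPV17, PXMP2 and MPV17L2, at 43.9%, 60.9% and 62.3%, and at nucleotide 2, the seed site of MPV17L2, they stand at 17.6%, 19.7% and 16.7%.

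The libraries behind these values held an estimated 16030000 to 23640000 mapped reads, at which 3 reads on a transcript of 1 kb equal 0.127 to 0.187 FPKM, counting error only. Across all tested genes limma called 1307 higher and 926 lower in biotin at an adjusted p of 0.05. All 8 genes listed as markers of DU-145 were above 1 FPKM in every library, with a summed level of 334.7 to 475 FPKM. The list includes VIM, a mesenchymal rather than epithelial marker. It alone had 173.4 and 271.7 FPKM in control replicates 1 and 2 and 123.5 and 165.8 FPKM in biotin replicates 1 and 2. Of the epithelial markers, KRT18 had 45.1 to 65.0 FPKM, while EPCAM and CDH1 were low, at 1.70 to 2.97 FPKM. KLK2, KLK3, PTPRC, HBB and CD3E were at 0. CD44 and EGFR of that list were themselves higher in biotin, with log2 differences of 2.12 and 1.03.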

How the data were processed

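RNA recovered on streptavidin from DU-145 cells was sequenced from 2 control and 2 biotin libraries as TruSeq Stranded Total RNA single reads of 50 bases, per the labels' protocols. The RNA input is 15 µg in the series design, and the extract protocol gives the figure in mg. FastQC 0.10.1, cutadapt, TopHat2 2.0.9, Cufflinks 2.1.1, Cuffdiff and hg38 are named, per the submitters' processing notes; the sources used here do not give their settings or annotation. For each library the authors deposited Cufflinks output with FPKM, the lower and upper end of an FPKM interval, and read coverage for 53209 transcript entries, per the file headers. No counts were used, and depth was estimated from coverage and FPKM. Per the file headers the tables also list transcript length, used as a description.

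RefSeq accessions were named from the RefSeq gene table or GENCODE 29 (98.7% matched), and FPKM was summed per gene. The 5 members had 8 entries. Genes with at least 1 FPKM in at least 2 libraries were tested with limma 3.58.1 in R 4.3.3 (lmFit, eBayes with trend) on log2(FPKM + 1), two-sided, with Benjamini-Hochberg adjustment over 9940 genes at 0.05. Short structured RNAs and the 22 genes with a failed or excess-data entry were left out. The fit had 2 residual degrees of freedom and 4.2 from the prior. The fit was tested on simulated data. Members, lists, neighbours and named genes were chosen with earlier results of these data known. The rule for named genes took all members, up to 4 called genes per list with the largest difference, the nearest tested gene on each side of a member, every tested neighbour of MPV17 and UCN within 100 kb, and the 3 nearest profiles of MPV17 and of UCN. Genes outside it (POLG, TFAM, SUCLG1, SUCLG2, ABCD3, SLC25A17, PXMP4, CAD as a pair, the other close pairs and genes listed at 0) were chosen after their values were seen. The markers given by name were also picked after their values were seen. Complementary runs and RNAduplex 2.7.2 energies were read from 1 GENCODE 29 transcript per gene.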

Additional observations from a re-analysis of the deposited data

How the results depend on the processing

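Of 186 alternative values, 130 stayed within the spread between replicates or within 1.5 times the reported count and 56 moved. Part of the 130 could not have moved. A left-out library always shifts the log2 difference of a member by less than that spread. Settings of filter, variance trend, block or single transcript leave it unchanged. The urocortin list had 0 tested genes at the reported filter. The 130 are thus no measure of stability. The number of genes called higher was 653 without a filter on low values, and 189 to 680 with a library left out. The number called lower was 230 without a filter and 32 to 223 with a library left out. Upper-quartile scaling moved the median log2 difference of all genes by -0.06 and gave 1224 higher and 1384 lower, so that 46.9% of calls were higher in place of 58.5%, and median-of-ratios scaling moved it by 0.06 and gave 1483 and 757 (66.2% higher). With the single transcript of highest mean in place of the gene sum, 423 of 9559 were higher and 152 lower. MPV17 ranged from 3.47 to 3.65 with a library left out and was 3.31 with the midpoint of the deposited interval, an alternative chosen after seeing the data. UCN ranged from 3.04 to 3.82 and was 2.59 with a pseudocount of 5 FPKM, MPV17L2 from 1.35 to 2.80 and PXMP2 from -0.22 to 0.34.

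Calls in the lists, both directions together, moved as follows. Without a filter there were 5 in nucleotide supply, 2 in membrane shape, 1 in ribosome assembly, 1 in the peroxisome, 0 in oxidant defence and 3 among neighbours. The midpoint gave 5 in mitochondrial DNA, 9 in membrane shape and 2 in oxidant defence. Upper-quartile scaling gave 5 in mitochondrial DNA and 6 in ribosome assembly, and median-of-ratios scaling 2 in ribosome assembly and 0 in oxidant defence. A mean of at least 5 FPKM gave 4 in the peroxisome, and pseudocounts of 0.1 and 5 gave 0 in oxidant defence. With a library left out the lists held 1 to 3 (mitochondrial DNA), 1 to 5 (nucleotide supply), 0 to 4 (membrane shape), 1 to 1 (ribosome assembly), 0 to 3 (peroxisome), 0 to 0 (oxidant defence) and 1 to 3 (neighbours). A fit that leaves 1 library in a group assumes that it varies like the others. The cause of these moves was not tested, other than the loss of a sample or the addition of low genes that each setting makes.

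Replicate numbers are shared between the groups, but the labels do not say that a number marks a shared culture, and deviations of same-numbered libraries correlated at r = 0.00246. With the replicate number as a block 1078 genes were higher and 534 lower, with 3 calls in membrane shape, 2 in ribosome assembly and 0 in oxidant defence. EIF2B4, SLC30A3, OPA1, CHCHD3, MALSU1, NOA1, RRM2 and GPX1 were not called under the block.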
